A study of Homo sapiens with 4 samples.

Results

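The TAM receptors TYRO3, AXL and MERTK, the receptor MET, and their protein ligands GAS6, PROS1 and HGF were followed across 4 RNA sequencing libraries of human bladder cancer cell lines. The 7 genes were taken by symbol from a table of 32973 genes, and all 7 were listed. T24T, a more aggressive derivative of the bladder carcinoma line T24, and UMUC3, a line from a bladder transitional cell carcinoma, had each been stably transfected with empty vector or with a plasmid that overexpresses BCUC-1, a circular RNA also named hsa_circ_0001361. The study set out to find genes downstream of BCUC-1. Each line with each plasmid made 1 of 4 groups, called vector and BCUC-1 here, and a group held 1 library. Whether a transfectant was a clone or a pool is not given in the sources used here. All cultures grew in RPMI-1640 with fetal bovine serum. Values are RPKM, reads per kilobase of exon and per 1000000 assigned reads, and reads were recovered exactly from them.

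TAM receptors are receptor tyrosine kinases that bind GAS6 or protein S (PROS1), which bridge them to phosphatidylserine on the surface of dying cells and of membrane debris. Both ligands need vitamin K-dependent carboxylation to do so. AXL binds GAS6, while TYRO3 and MERTK bind both ligands. MET is the receptor of hepatocyte growth factor (HGF), a protein made mainly by stromal cells, secreted as an inactive precursor and cut by serine proteases. AXL and MET are widely found in carcinoma cells of mesenchymal type, and MERTK is best known in macrophages and in the retinal pigment epithelium.

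The libraries held from 22730112 to 26497894 assigned reads. No circular RNA was counted separately, and the overexpression could not be checked. Of 16 urothelial and epithelial marker genes, 4 or 5 reached 1 RPKM in a library, among them the simple keratins KRT8 and KRT18. The 16 genes summed to between 59.2 RPKM (UMUC3 vector) and 264 RPKM (T24T BCUC-1). CDH1, KRT5, KRT20 and UPK3A, an adhesion gene, keratins and a uroplakin of epithelium or urothelium, stayed at or under 0.0419 RPKM in all libraries. Other urothelial genes were measurable, with KRT7 at 27.1 and 25.0 RPKM in T24T and 2.99 and 3.02 in UMUC3, PPARG at 1.60 to 1.87 RPKM, and UPK1B at 0.895 and 1.03 RPKM in T24T but 0 in UMUC3. UPK2 ran from 0.345 to 0.955 RPKM and FOXA1 from 0.616 to 1.17 RPKM. Of 7 macrophage and leukocyte markers analysed, CD68, a lysosomal protein, stood at 6.78 to 7.45 RPKM in T24T and at 119 to 124 RPKM in UMUC3. The other 6, including CD14, CSF1R and CD163, stayed at or under 0.213 RPKM. Of 11 mesenchymal and fibroblast genes, VIM led with 82.9 to 267 RPKM, while the fibroblast genes DCN and LUM were at or under 0.126 RPKM. The 6 endothelial markers summed to at most 0.111 RPKM.

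AXL was the most abundant of the 7 genes in every library, and its lead was larger in UMUC3. It lies on chromosome 19 from 41219203 to 41261766, plus strand (GRCh38). In T24T, AXL had 23.5 RPKM with vector (2874 reads, 95% counting interval 22.7 to 24.4) and 24.5 RPKM with BCUC-1. In UMUC3 it had 90.7 RPKM with vector and 105 RPKM with BCUC-1 (12323 reads, 103 to 107). Both UMUC3 libraries thus lay above both T24T libraries. Depth-scaled read counts were 3.85 times higher in UMUC3 than in T24T for the vector pair (3.70 to 4.01) and 4.29 times higher for the BCUC-1 pair (4.12 to 4.46). These intervals, like all counting intervals below, are exact, cover counting error only and say nothing of variation between cultures. A gene on the opposite strand, CTD-2195B23.3, shares 67 exonic bases with AXL and had 55 to 64 reads in T24T and 283 to 299 in UMUC3. Whether the counting used strand is not given in the sources used here, so its reads and those of AXL cannot be told apart.

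TYRO3 was a minor member in both lines. TYRO3 (chromosome 15, 41557675 to 41583586, plus strand) had 1.77 and 1.96 RPKM in T24T vector and BCUC-1, and 2.94 and 3.17 RPKM in UMUC3 vector and BCUC-1. It was higher in both UMUC3 libraries, by 1.66 times in the vector pair (1.48 to 1.87). Its copy TYRO3P had 1 read in UMUC3 vector and 0 elsewhere, so almost no reads were placed on the copy.

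MERTK ran the other way. MERTK (chromosome 2, 111898479 to 112029561, plus strand) had 4.57 RPKM in T24T vector and 4.85 in T24T BCUC-1, but 0.819 RPKM in UMUC3 vector (102 reads, 0.668 to 0.994) and 1.07 RPKM in UMUC3 BCUC-1 (114 reads, 0.880 to 1.28). Both T24T libraries lay above both UMUC3 libraries, by 5.58 times for the vector pair (4.51 to 6.98) and 4.55 times for the BCUC-1 pair (3.71 to 5.62). MERTK thus exceeded TYRO3 in T24T, at 2.58 times its RPKM with vector, and lay below it in UMUC3, where TYRO3 stood at 3.60 times MERTK with vector. Of the RPKM summed over the 3 receptors, AXL held 78.8% (vector) and 78.3% (BCUC-1) in T24T, against 96.0% and 96.1% in UMUC3. MERTK held 15.3% and 15.5% in T24T, against 0.867% and 0.975% in UMUC3.

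**Figure D1:**
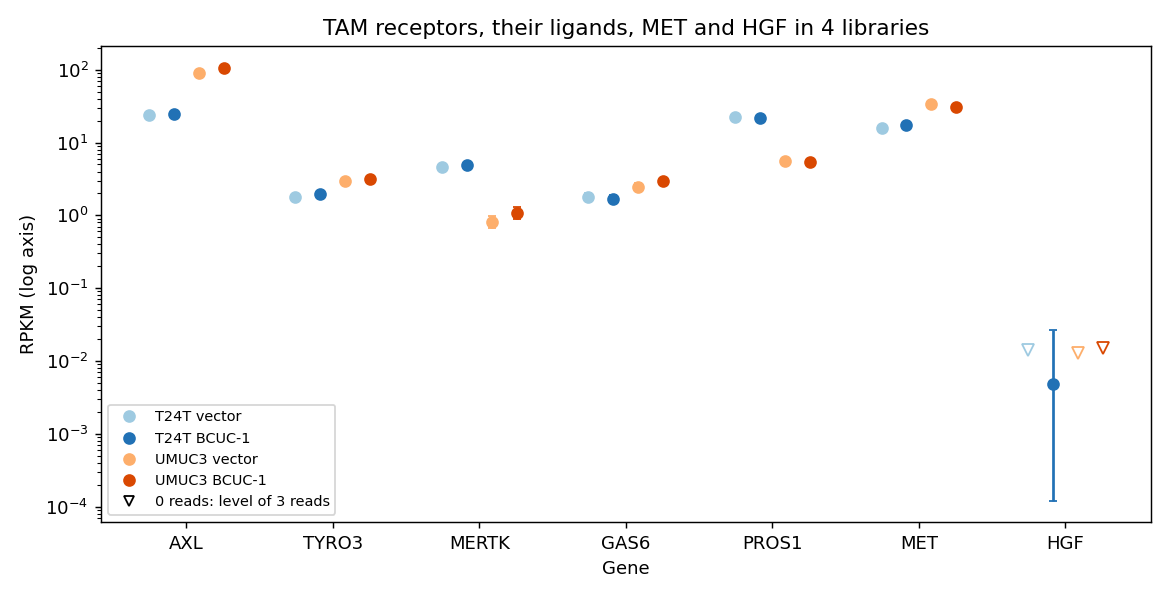
RPKM (log axis) of the 7 genes in each library, with exact 95% counting intervals; open triangles mark 0 reads, drawn at the level of 3 reads. AXL is on top in all 4 libraries at 23.5 to 105 RPKM, MERTK and PROS1 are higher in T24T, and HGF has 1 read in all.

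The TAM ligands split between the lines, with PROS1 higher in T24T and GAS6 higher in UMUC3. PROS1, the anticoagulant protein S, lies on chromosome 3 from 93873033 to 93974066, minus strand, and had 22.4 and 21.5 RPKM in T24T vector and BCUC-1 against 5.52 and 5.42 RPKM in UMUC3 vector and BCUC-1. Its level in T24T was 4.06 times that in UMUC3 for the vector pair (3.72 to 4.43) and 3.97 times for the BCUC-1 pair (3.61 to 4.36). The copy PROS2P had 1 read in T24T vector and 0 elsewhere.

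GAS6, the ligand of all 3 TAM receptors, was low in both lines. GAS6 (chromosome 13, 113820549 to 113864067, minus strand) had 1.79 and 1.68 RPKM in T24T vector and BCUC-1, and 2.49 and 2.97 RPKM in UMUC3 vector and BCUC-1. The UMUC3 libraries were 1.39 times higher with vector (1.18 to 1.63) and 1.77 times with BCUC-1 (1.50 to 2.08). GAS6-AS1, on the opposite strand, shares 421 exonic bases with GAS6 and had 91 to 141 reads a library. GAS6 itself had 238 to 405, so an antisense share of its reads cannot be told apart. PROS1 exceeded GAS6 by 12.5 times per length in T24T vector and by 2.22 times in UMUC3 vector. AXL, whose ligand is GAS6, stood at 13.1 times GAS6 per length in T24T vector and at 36.5 times in UMUC3 vector.

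MET followed AXL in UMUC3, and AXL and PROS1 in T24T. MET (chromosome 7, 116672390 to 116798386, plus strand) had 16.0 and 17.2 RPKM in T24T vector and BCUC-1, and 33.5 and 30.3 RPKM in UMUC3 vector and BCUC-1. Both UMUC3 libraries were higher, and T24T had 0.479 times their depth-scaled reads in the vector pair (0.457 to 0.501) and 0.567 times in the BCUC-1 pair (0.542 to 0.594). HGF (chromosome 7, 81699006 to 81770438, minus strand) had 1 read in T24T BCUC-1, or 0.00476 RPKM (0.000121 to 0.0266), and 0 reads in the other libraries. A count of 0 allows up to 3 reads as a one-sided limit, which is 0.0142 RPKM in T24T vector, 0.0127 in the UMUC3 vector library and 0.0148 in that with BCUC-1. The receptor MET had 2669 to 6240 reads in these libraries, which held at most 1 read of its ligand gene. Serum in the medium was not measured.

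Ordered by RPKM, T24T vector ran AXL, PROS1, MET, MERTK, GAS6, TYRO3, HGF, and UMUC3 vector ran AXL, MET, PROS1, TYRO3, GAS6, MERTK, HGF. Counting intervals overlapped between AXL and PROS1 and between GAS6 and TYRO3 in T24T vector, between TYRO3 and GAS6 in T24T BCUC-1, and between TYRO3 and GAS6 in UMUC3 BCUC-1. All other neighbours were apart by more than counting error.

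The difference between the lines was tested with limma on log2(RPKM + 1) over all 4 libraries, with treatment as a covariate and Benjamini-Hochberg adjustment over the 15415 genes that reached 1 RPKM in at least 2 libraries. HGF did not reach that floor, and the other 6 genes did, MERTK through both T24T libraries and 1 UMUC3 library. All 6 passed an adjusted p of 0.05, 2 with the higher level in T24T and 4 with the higher level in UMUC3, and in all 6 the RPKM of the lines did not overlap. The background was high: 70.4% of all genes tested passed, 40.8% with T24T higher and 29.6% with UMUC3 higher, and in 85.7% the lines did not overlap. That the 6 genes passed is thus near the background. At least 2-fold on this scale were 3 of the 6, MERTK and PROS1 with T24T higher (10.2% of all genes tested) and AXL with UMUC3 higher (7.73%), against 17.9% of all genes in either direction.

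**Figure D2:**
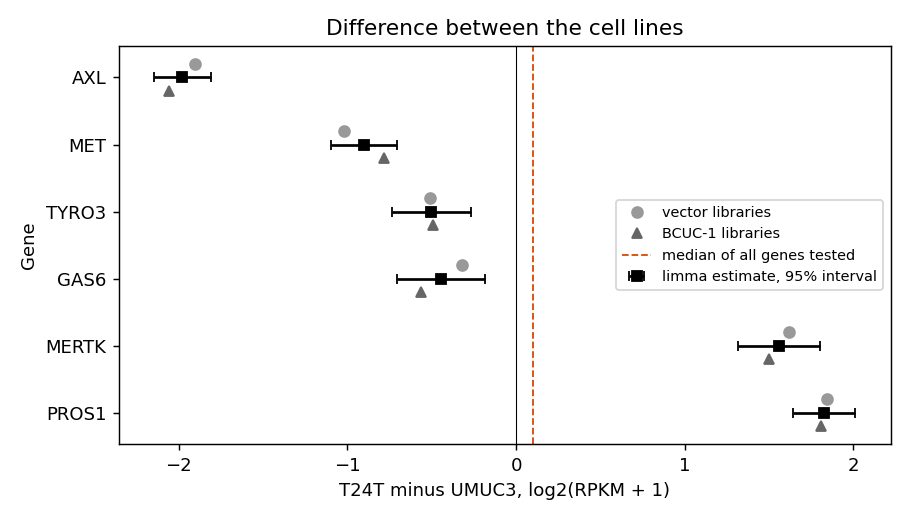
Difference between T24T and UMUC3 in log2(RPKM + 1) for the 6 genes tested, with limma's estimate and 95% interval (squares), the vector pair (circles) and the BCUC-1 pair (triangles). AXL lies at -1.98, MERTK at 1.56 and PROS1 at 1.83, and the dashed line marks the median of all genes tested, 0.10.

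AXL lay furthest on the UMUC3 side of the 6 genes, with T24T minus UMUC3 at -1.98 (SE 0.070, limma adjusted p = 2.45e-06). In all, 1.93% of the genes tested lay further out in that direction. PROS1 stood at 1.83 (SE 0.077, limma adjusted p = 4.70e-06) with 2.80% of genes further out on the T24T side, and MERTK at 1.56 (SE 0.10, limma adjusted p = 2.42e-05) with 4.02% further out. MET stood at -0.90 (SE 0.082, limma adjusted p = 0.000107). TYRO3 at -0.50 (SE 0.098, limma adjusted p = 0.00355) and GAS6 at -0.44 (SE 0.11, limma adjusted p = 0.00980) were close to the middle of the distribution of sizes, as 45.6% and 50.5% of genes had a larger absolute difference. The fold of MERTK is understated on this scale because of the pseudocount of 1. With no floor on low values, GAS6 had a limma adjusted p of 0.0824 and no longer passed. The test had 1 residual degree of freedom and borrowed its spread from all genes, and the vector and BCUC-1 libraries of a line stood as its replicates. The median of all genes tested was 0.10 on the T24T side, and -0.015 with the median level of each library set equal. With that scaling AXL stood at -2.12, MET at -1.04, TYRO3 at -0.60, GAS6 at -0.54, MERTK at 1.46 and PROS1 at 1.69, so all 6 kept their direction.

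The 250 bases before a RefSeq start (GRCh38.p14) were read for each gene, at the start nearest the 5′ end of the gene in the table. All 7 genes had an entry. A RefSeq start can lie inside the gene as listed. The windows of HGF and TYRO3 lay wholly within the listed gene, and those of MERTK, PROS1 and AXL overlapped its 5′ end. Those of GAS6 and MET lay wholly before it. Shown 5′ to 3′ are AXL, the gene highest in UMUC3, MERTK and PROS1, the 2 genes higher in T24T, and HGF, the gene with at most 1 read. Capitals mark GGGCGG on either strand (CCGCCC on the other), the core of the GC box bound by SP1. AXL is chr19:41218973-41219222 on the plus strand, MERTK chr2:111898357-111898606 on the plus strand, PROS1 chr3:93973897-93974146 on the minus strand and HGF chr7:81770048-81770297 on the minus strand.
AXL: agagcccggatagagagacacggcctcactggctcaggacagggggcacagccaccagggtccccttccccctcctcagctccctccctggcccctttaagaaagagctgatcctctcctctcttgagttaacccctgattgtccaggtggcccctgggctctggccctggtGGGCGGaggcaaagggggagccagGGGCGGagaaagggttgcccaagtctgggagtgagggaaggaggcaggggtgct
MERTK: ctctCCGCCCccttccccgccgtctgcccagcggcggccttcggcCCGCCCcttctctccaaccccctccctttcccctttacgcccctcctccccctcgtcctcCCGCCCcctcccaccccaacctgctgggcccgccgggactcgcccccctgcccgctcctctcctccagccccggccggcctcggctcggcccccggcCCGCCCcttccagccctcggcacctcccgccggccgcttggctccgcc
PROS1: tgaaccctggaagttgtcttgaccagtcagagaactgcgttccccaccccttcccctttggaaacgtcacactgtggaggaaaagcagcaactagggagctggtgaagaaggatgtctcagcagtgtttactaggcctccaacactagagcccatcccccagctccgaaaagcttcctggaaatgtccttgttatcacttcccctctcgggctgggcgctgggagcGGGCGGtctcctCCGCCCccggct
HGF: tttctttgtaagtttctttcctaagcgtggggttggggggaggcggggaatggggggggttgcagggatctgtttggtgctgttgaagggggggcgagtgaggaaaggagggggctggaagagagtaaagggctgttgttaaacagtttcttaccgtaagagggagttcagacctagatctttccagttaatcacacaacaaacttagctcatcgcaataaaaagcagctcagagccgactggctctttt

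GGGCGG occurred 4 times in the MERTK window and 3 times each in those of TYRO3 and GAS6. It occurred 2 times each in those of AXL, PROS1 and MET, and 0 times in that of HGF. It was present in 42.6% of 35116 windows of the same length over all RefSeq starts. TATAAA on either strand was found in none of the windows of the 7 genes and in 10.7% of all windows. TGANTCA, the core of an AP-1 site and its own reverse complement, was found 1 time in the TYRO3 window, against 6.57% of all windows. None of the other genes had it in the window. AXL had 4 CpG dinucleotides in its window, HGF 6 and PROS1 9, all under the median of 11 over all windows. MET had 24, MERTK 25, GAS6 31 and TYRO3 39. The most abundant and the least abundant of the 7 genes thus had the fewest CpG. These are matches of letters in 1 window, not sites of binding, and no methylation or binding was measured.

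Among human receptor tyrosine kinase genes, AXL and MET were in the top 4 in each library. Of 54 such genes analysed, 21 reached 1 RPKM in each T24T library, and in UMUC3 17 did with vector and 18 with BCUC-1. AXL ranked 3 in both T24T libraries and 1 in both UMUC3 libraries, where it held 38.8% (vector) and 41.3% (BCUC-1) of the RPKM summed over the 54 genes, against 11.4% and 11.9% in T24T. MET ranked 4 in T24T and 3 in UMUC3. In T24T the leading kinase genes were the ephrin receptor EPHA2 (58.9 RPKM with vector) and the EGF receptor EGFR (32.7), and in UMUC3 vector EPHA2 (35.4) and EGFR (9.76) stood below AXL. RYK, a WNT receptor, completed the 5 highest in T24T at 9.44 RPKM with vector. MERTK ranked 11 in both T24T libraries, and in UMUC3 20 with vector and 18 with BCUC-1, and TYRO3 ranked from 12 to 18 over the 4 libraries.

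**Figure D3:**
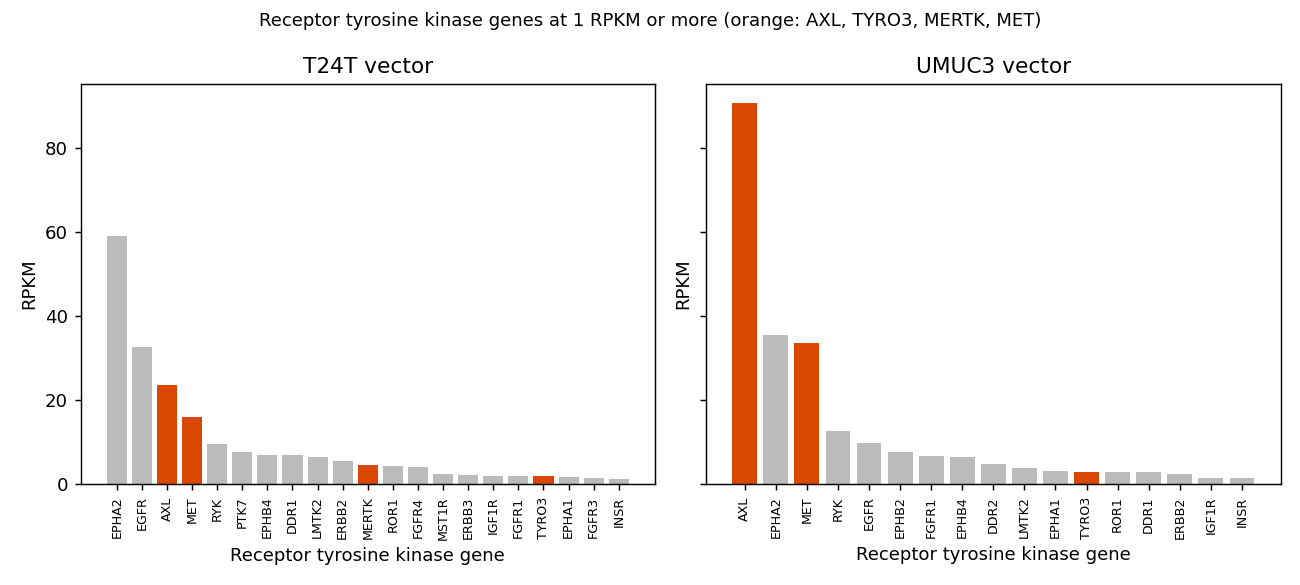
RPKM of the receptor tyrosine kinase genes with at least 1 RPKM in T24T vector (left, 21 genes) and UMUC3 vector (right, 17 genes), in order of level, with AXL, TYRO3, MERTK and MET in orange. AXL ranks 3 in T24T vector at 23.5 RPKM and 1 in UMUC3 vector at 90.7 RPKM.

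A gene with no library of 1 line at the floor of 1 RPKM could enter the test only through the line where it was high. Such genes passed in 97.5% of cases over all genes, against 65.5% of the other genes tested, so their levels are given below as a description with no p. None of the 6 genes of the TAM and MET group was of that kind. Of the 23 kinase genes tested, 7 were. In all, 12 of the 23 passed with T24T higher and 8 with UMUC3 higher, where 40.8% and 29.6% of all genes did.

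On log2(RPKM + 1), which shrinks the differences of low genes, AXL ranked 4 by size of the line difference among the 23 kinase genes, MERTK 8 and MET 11. Above AXL on that scale, and named after their values were seen, were EPHB2, an ephrin receptor (0.361 and 0.376 RPKM in T24T against 7.48 and 8.04 in UMUC3), PTK7, a pseudokinase receptor (7.69 and 7.54 against 0.636 and 0.614), and DDR2, a collagen receptor (0.291 and 0.253 against 4.73 and 4.51). By fold the order differs, since MERTK, at 5.58 and 4.55 times, exceeded AXL, at 3.85 and 4.29 times. So did the FGF receptor FGFR4 (4.12 and 4.36 RPKM in T24T against 0.313 and 0.437 in UMUC3) and ERBB3, a relative of EGFR (2.10 and 1.62 against 0.235 and 0.234). EPHB2, PTK7, DDR2, FGFR4 and ERBB3 are all among the 7 kinase genes that reached the floor in 1 line alone. The ranks given here therefore depend partly on genes that entered through the line where they were high. Of the 16 kinase genes at the floor in both lines, none had a larger difference than AXL on log2(RPKM + 1).

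Of the genes that control HGF activation, SPINT2 had the higher level in T24T, and PLAU and PLAT had theirs in UMUC3. SPINT2, a membrane inhibitor of the proteases that activate HGF, had 48.4 and 47.1 RPKM in T24T vector and BCUC-1 (5954 and 5771 reads), but 0.0798 and 0.0677 RPKM in UMUC3 (11 and 8 reads). It reached the floor in T24T alone. PLAU, the urokinase that can cleave the HGF precursor, went the other way, at 22.3 and 21.7 RPKM in T24T vector and BCUC-1 and 121 and 139 RPKM in UMUC3, a line difference of -2.51 (limma adjusted p = 1.66e-06). PLAT, the tissue plasminogen activator, stood on the same side as PLAU, at 1.40 and 1.60 RPKM against 0.185 and 0.231 in T24T, and reached the floor in UMUC3 alone. Of the 9 genes of HGF activation analysed, 4 were tested, and 3 of the 4 passed, near the background of 70.4%. Except for PLAU, the genes tested reached the floor in 1 line alone. KLKB1, plasma prekallikrein, was under the floor at 0.443 and 0.546 RPKM in T24T and at 0 and 2 reads in UMUC3. HGFAC, ST14, SPINT1 and SERPINA5, named after their values were seen, had at most 16 reads in any library.

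**Figure D4:**
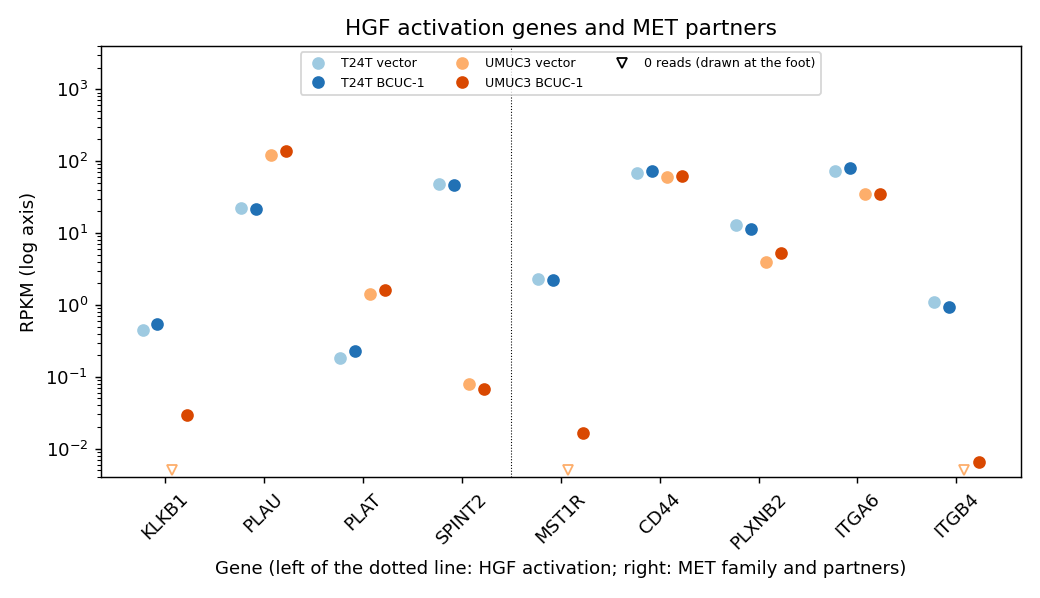
RPKM (log axis) in each library of named genes of HGF activation (left of the dotted line) and of MET family and partner genes (right); open triangles are 0 reads. SPINT2 stands at 48.4 RPKM in T24T vector and at 0.0798 in UMUC3 vector, while PLAU is higher in UMUC3 at 121 and 139 RPKM.

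MST1R, which encodes RON, the only close relative of MET, had 2.30 and 2.19 RPKM in T24T vector and BCUC-1 (286 and 271 reads), and 0 and 2 reads in UMUC3. It reached the floor in T24T alone. Among surface partners of MET, the hyaluronan receptor CD44 ran from 60.6 to 72.0 RPKM, slightly higher in T24T (0.18, limma adjusted p = 0.0340). The laminin receptor subunit ITGA6 had 71.9 and 80.3 RPKM in T24T and 35.3 and 34.7 in UMUC3 (1.10, limma adjusted p = 2.63e-05). PLXNB2, a semaphorin receptor, had 12.8 and 11.4 RPKM in T24T against 3.90 and 5.20 in UMUC3 (1.25, limma adjusted p = 0.000184). ITGB4, the partner chain of ITGA6, was not tested, at 176 and 150 reads in T24T but 0 and 1 read in UMUC3. Of the 15 genes of this list, 5 were tested and passed with T24T higher, but MST1R and PLXNB1 had entered through T24T alone, and NRP1, NRP2, SEMA5A and LRIG1, named after their values were seen and with higher RPKM in UMUC3, were under the floor. The direction of the count was therefore partly set by the floor.

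Of the genes tested in the list of other TAM ligands and partners, 1 was nearly absent from T24T. TUB, tubby, which has been described as a bridging ligand of MERTK, had 0 and 1 reads in T24T but 6.24 and 6.33 RPKM in UMUC3 (1112 and 967 reads), and reached the floor in UMUC3 alone. Galectin-3 (LGALS3), another reported MERTK ligand, had 6.68 and 6.08 RPKM in T24T and 4.38 and 4.70 in UMUC3 (0.41, limma adjusted p = 0.00840). The integrin chains ITGAV (0.26, limma adjusted p = 0.0220) and ITGB5 (-0.57, limma adjusted p = 0.000326) stood on opposite sides. All 4 genes tested passed, 2 in each direction, of 7 in the list, where 70.4% of all genes did. TULP1 and C4BPB, not tested and named after their values were seen, were nearly absent from both lines. TULP1 had 1 read in each T24T library, C4BPB had 6 and 2, and both had 0 in UMUC3.

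All 6 genes of vitamin K-dependent carboxylation and ligand maturation were expressed and passed, 4 with T24T higher and 2 with UMUC3 higher, beside 40.8% and 29.6% of all genes. VKORC1, the epoxide reductase that recycles vitamin K, had 41.0 and 39.2 RPKM in T24T and 15.7 and 17.8 in UMUC3 (1.21, limma adjusted p = 2.93e-05), the same side as PROS1. GGCX, the carboxylase, stood at 11.5 and 11.1 RPKM in T24T and 17.4 and 17.8 in UMUC3 (-0.60, limma adjusted p = 0.000463), on the side of GAS6. CALU, calumenin, a protein of the endoplasmic reticulum that inhibits the carboxylation system, was the most abundant at 84.4 to 101 RPKM. NQO1 (-0.38) and the proprotein convertase FURIN (0.54) passed too.

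Proteases that shed AXL, MERTK and MET were present in both lines. ADAM10 had 20.5 and 19.6 RPKM in T24T and 13.8 and 12.7 in UMUC3 (0.56, limma adjusted p = 0.000508), and ADAM17, the other sheddase, 10.5 and 9.94 against 14.6 and 13.7 (-0.44, limma adjusted p = 0.00210). Their inhibitor TIMP3 was under the floor, at 57 and 63 reads in T24T but 5 and 6 reads in UMUC3, and TIMP1 stood at 13.2 to 17.9 RPKM. Of the 6 genes, 5 were tested and passed, 3 with T24T higher and 2 with UMUC3 higher, beside a background of 70.4%. NCSTN, nicastrin, a subunit of the gamma-secretase that cuts the stubs left by shedding, was among the former (0.45).

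Of 27 adaptors and effectors, 24 were tested, 14 passed with T24T higher and 5 with UMUC3 higher, which is 79.2% against 70.4% of all genes. The median was 0.46, against 0.10 over all genes. SHC1, an adaptor, had 101 and 102 RPKM in T24T and 29.8 and 31.5 in UMUC3 (1.69, limma adjusted p = 3.13e-06), and the kinase SRC stood at 1.58. GAB2, a docking adaptor, was on the side of AXL, at 1.29 and 1.23 RPKM in T24T and 5.38 and 6.02 in UMUC3 (-1.57, limma adjusted p = 2.69e-05). VAV3, a guanine nucleotide exchange factor, had 690 and 610 reads in T24T but 5 in each UMUC3 library, and reached the floor in T24T alone. The phosphatase PTPN11 (0.43) and RAC1 (0.70) were abundant in all libraries, at 61.6 RPKM or more.

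Of 18 negative regulators analysed, 16 were tested, 8 passed with T24T higher and 2 with UMUC3 higher, or 62.5% against 70.4% of all genes, with a median of 0.18. SOCS1, SPRY1 and PTPRG reached the floor in 1 line alone, and all 3 passed. Of the 13 at the floor in both lines, 53.8% passed, against 65.5% of all such genes. The Sprouty protein SPRY2, an inhibitor of receptor signalling to ERK, had 18.1 and 18.4 RPKM in T24T (1304 and 1318 reads) but 354 and 283 reads in UMUC3 (1.88, limma adjusted p = 5.49e-06), and SOCS1, a cytokine signalling suppressor that reached the floor in T24T alone, had 128 and 116 reads in T24T but 22 and 14 in UMUC3. The 2 genes higher in UMUC3 were SH3KBP1, which encodes CIN85, a CBL partner in receptor endocytosis (-1.80), and the phosphatase PTPRG, which reached the floor in UMUC3 alone (0.964 and 0.974 RPKM in T24T against 5.73 and 5.80). PTPN1 (0.22), a phosphatase, and ERRFI1 (-0.11, limma adjusted p = 0.172), a feedback inhibitor of the EGF receptor family, were the most abundant of the list.

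Neighbouring genes on the chromosome were compared to see how local the line differences were, using the 3 nearest tested genes of at least 500 bases on each side, a comparison chosen after the values were seen. At AXL, HNRNPUL1, only 730 bases downstream, stood at -0.13 (limma adjusted p = 0.128), and TGFB1 at -0.40. CYP2S1, 11664 bases upstream, had the opposite sign, with 3.02 RPKM in T24T BCUC-1 and 0 in both UMUC3 libraries. It reached the floor in T24T alone, so its sign was set by the floor. AXL at -1.98 lay further on the UMUC3 side than each of its 6 neighbours. At MERTK, TMEM87B, 25662 bases away, had a difference of 1.54, close to that of MERTK at 1.56, and ANAPC1 stood at 0.60. At MET, CAPZA2 downstream stood at 0.075 and the caveolins CAV1 and CAV2 upstream at 1.36 and 1.05, opposite to MET at -0.90, while ST7 stood at -0.82. Copy number was not measured.

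Genes with the most similar pattern over the 4 libraries were ranked by the root mean square distance of log2(RPKM + 1), centred on each gene's mean, among 8002 genes with a mean of at least 5 RPKM. For AXL these were SH3PXD2B, an adaptor of invadopodia (distance 0.032), CAP2, an actin regulator (0.049), and WWC1, a Hippo pathway scaffold (0.056). For PROS1 they were RP1-178F15.5 (0.015), IVNS1ABP (0.017) and DEPDC1B (0.022), and for MERTK AC010761.9 (0.025), LRRFIP1P1 (0.042) and EHBP1 (0.048). For MET they were PSAT1, an enzyme of serine synthesis (0.023), NCOA4, the ferritinophagy receptor (0.023), and GTF2A2 (0.031). TYRO3 lay nearest to LSM4 (0.0093), SEC61A1 (0.011) and UQCRFS1 (0.011), and GAS6 to MEF2D (0.010), NAB2 (0.011) and PHF21A (0.013). A pattern over 4 libraries is mostly the line difference, and small differences have many near matches: 837 genes lay within 0.1 of TYRO3, but 18 of AXL, 50 of MERTK and 51 of PROS1.

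The difference between BCUC-1 and vector over both lines lay between -0.039 and 0.13 on log2(RPKM + 1) for the 6 genes tested, and HGF was too low for an estimate. In the limma fit over both lines with line as a covariate, 0 of the 6 genes tested passed an adjusted p of 0.05, and 0 of 15415 genes did (0.0%). At an unadjusted limma p under 0.05 there were 0 of the 6 and 652 (4.23%) of all genes. BCUC-1 minus vector was 0.13 for AXL (SE 0.070, 95% interval -0.033 to 0.30, limma adjusted p = 0.998), 0.13 for MERTK (-0.11 to 0.37), 0.088 for TYRO3 (-0.15 to 0.32), 0.063 for GAS6 (-0.20 to 0.32), -0.039 for PROS1 (-0.22 to 0.15) and -0.020 for MET (-0.22 to 0.18). The bound furthest from 0 was 0.37, for MERTK. With limma-voom on the recovered reads 13 genes passed (0.0843%), none of them among the 6. AXL stood at 0.15 there (95% interval 0.018 to 0.29, limma-voom adjusted p = 0.998), with 2 of 2 lines higher. It was 1 of the 6 genes below an unadjusted 0.05, as were 4.09% of all genes.

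Within a line, with 1 library a group, no test was made, and the values compare libraries, not conditions. In T24T, AXL had 1.04 times the depth-scaled reads with BCUC-1 that it had with vector (0.990 to 1.10), TYRO3 1.11 times (0.973 to 1.26), MERTK 1.06 times (0.938 to 1.20), GAS6 0.937 times (0.782 to 1.12) and PROS1 0.961 times (0.906 to 1.02). MET, at 1.07 times (1.02 to 1.13), was the only 1 of the 6 whose counting interval excluded 1. That was so for 15.4% of the 14946 genes with at least 1 RPKM in a T24T library, above 1 in 5.41% and below it in 9.98%. None of the 6 differed 2-fold, as 0.602% of genes did.

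In UMUC3, AXL had 1.16 times the depth-scaled reads with BCUC-1 (1.13 to 1.19), GAS6 1.19 times (1.04 to 1.37) and MET 0.906 times (0.873 to 0.941). Those 3 counting intervals excluded 1, as did those of 35.9% of the 14347 genes at that floor in UMUC3, above 1 in 21.0% and below it in 14.9%. MERTK stood at 1.30 times (0.989 to 1.72) on 102 and 114 reads, TYRO3 at 1.08 times (0.976 to 1.19) and PROS1 at 0.982 times (0.875 to 1.10). None of the 6 differed 2-fold, against 0.753% of genes.

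The UMUC3 libraries also differed by base composition, and the values of several of these genes moved with it. Genes of GC content like that of GAS6 (61.8%) had a median log2 difference of 0.15 in UMUC3, and those like AXL (53.9%) and TYRO3 (53.1%) had 0.087. Those like PROS1 (40.5%) and MET (42.4%) had -0.068 and -0.024. With that trend removed, the UMUC3 log2 difference of AXL went from 0.21 to 0.12 and that of GAS6 from 0.19 to 0.037. TYRO3 went from 0.081 to -0.0068 and PROS1 from -0.022 to 0.046, each changing sign. MERTK (0.18 to 0.15) and MET (-0.14 to -0.11) kept most of their difference. In T24T the medians at these GC contents lay between -0.028 and -0.0055.

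**Figure D5:**
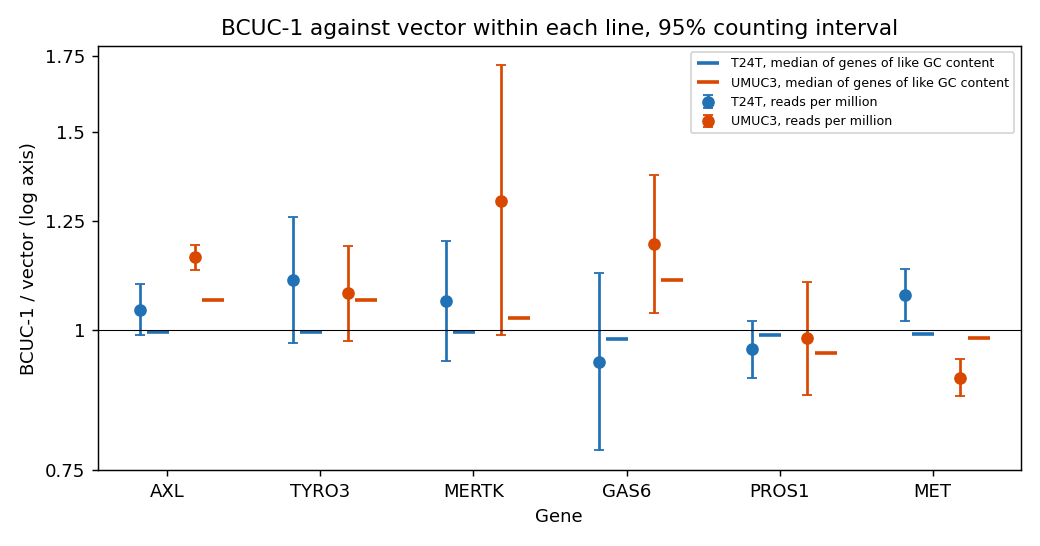
Depth-scaled reads with BCUC-1 over those with vector in each line (points, log axis) with exact 95% counting intervals, and the median of genes of like GC content (dashes) for 6 genes. AXL in UMUC3 lies at 1.16, above its dash, and MET lies above 1 in T24T at 1.07 and below it in UMUC3 at 0.906.

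Among the pathway lists, 0 genes passed limma for BCUC-1, and none was 2-fold different in either line. In UMUC3, 18 of the 23 adaptors and effectors above the floor were higher with BCUC-1, with a median log2 difference of 0.10. Its GC-corrected median was 0.013. The background was 57.4% of genes higher and a median of 0.031. In T24T, 11 of 24 were higher, with a median of -0.012, where 43.4% of all genes were higher with a median of -0.016. PLXNB2 stood at 0.34 in UMUC3 and -0.16 in T24T. PLAU stood at 0.20 in UMUC3 and -0.035 in T24T, and SPINT2 at -0.016 and -0.039. The kinase gene EPHA1, named after its values were seen, stood at 0.38 in UMUC3 and 0.038 in T24T. These values of single genes were not corrected for GC content and compare libraries, not conditions.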

How the data were processed

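Total RNA of the 4 transfected cell cultures was sequenced after standard Illumina library preparation, per the labels. The deposited table holds RPKM for each gene and library, the authors' scaling of reads to gene length and to 1000000 assigned reads. Per the file headers it also gives a Length in bases (unit "other"), the exonic length. The submitters' processing notes name Bowtie 0.12.2. Its settings, the counter, strand use, genome build and annotation: not given in the sources used here. Start or end matched GENCODE 29 for 96.5% of 22720 genes with a unique symbol, and coordinates are therefore given as GRCh38.

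RPKM times length, divided by a step fitted for each library, gave whole reads for 100% of genes in each library (tolerance 0.001 reads). The steps also gave the depths. The line and BCUC-1 terms were tested with limma 3.58.1 (trend, R 4.3.3) on log2(RPKM + 1). The test was two-sided, with a floor of 1 RPKM in 2 libraries, Benjamini-Hochberg adjustment and 1 residual degree of freedom. The fit was also run on simulated libraries with an assumed spread and few changed genes. In the data 70.4% of genes passed between the lines, so that run does not gauge the error of the line test. Poisson and Clopper-Pearson 95% intervals were exact. GC content came from each gene's longest transcript in GENCODE 29, in 20 bins, and 99.3% of genes tested had a value. Nothing says that libraries came from separate cultures, so p-values may measure technical spread.

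Members and lists were chosen with earlier results of these data known. Named were the 7 genes, their listed copies and antisense genes, of each list the 2 members with the highest mean RPKM and the 4 with the largest line difference, kinase genes among the 5 highest of a library, and the 3 nearest patterns of each gene. Genes not in the table were not analysed here.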

Additional observations from a re-analysis of the deposited data

Results flagged for a closer look

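The estimates of MET and GAS6 for BCUC-1 had opposite signs in the 2 lines, and the difference was not tested, since with 1 library a group an interaction leaves no residual degree of freedom. For MET the log2(RPKM + 1) difference was 0.098 in T24T and -0.14 in UMUC3, a gap of 0.24, and the counting intervals of both ratios excluded 1. For GAS6 it was -0.060 in T24T and 0.19 in UMUC3, a gap of -0.25, but the counting interval of its T24T ratio (0.782 to 1.12) included 1. After removal of the trend on GC content they were 0.11 and -0.11 for MET and -0.032 and 0.037 for GAS6. The part of base composition in either was not tested further.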

How the results depend on the processing

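The line difference kept its direction for all 6 genes in every alternative run (at a floor of 5 RPKM only AXL, PROS1 and MET were tested), and its side of the threshold in all but GAS6 with no floor (limma adjusted p = 0.0824). Its count of 10847 genes was 6780 at a floor of 5 RPKM, where fewer genes are tested, and 7777 to 10018 when each library was left out in turn, without the treatment term. AXL then stood between -2.08 and -1.87. The count for BCUC-1 over both lines, 0, was 1 with a pseudocount of 0.1, 60 at a floor of 5 RPKM, 4 with equal medians and 13 with limma-voom, and 0 with quantile normalization, no floor, no line term or the GC trend removed, the last chosen after seeing the data. None of the 6 genes was among those calls. T24T alone reversed GAS6 (-0.060) and MET (0.098) against the estimate over both lines. The count of 2-fold differences was 90 in T24T, 254 with a pseudocount of 0.1 and 7 at 5 RPKM. In UMUC3 it was 108, and 280, 18 and, by recovered reads, 166. The cause of the other shifts was not tested. The BCUC-1 fit compares libraries within lines through its line term, and the labels give no replicate numbers for a further block. Depth limited MERTK in UMUC3, at 102 and 114 reads. HGF had at most 1 read in a library, too few for a comparison.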
